A study of Mus musculus with 8 samples.

Results

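Osteogenic differentiation medium was compared with complete medium in mouse cardiac fibroblasts that overexpressed EphrinB2, in 4 of the 8 RNA sequencing libraries of the series. The libraries were chosen by their labels alone. A pair of groups with 2 libraries each entered the comparison, EphrinB2-overexpression in complete medium and EphrinB2-overexpression under osteogenic differentiation, all collected at day 7. The other 4 libraries are cells with a vector in the same media at the same day, and they serve as a reference and share the estimate of the spread. All 8 are total RNA of cardiac fibroblasts extracted with Trizol. The labels do not give the composition of either medium, how EphrinB2 was overexpressed, the animals, the passage or a batch. No label ties the 2 libraries of a group to different cultures or animals, and the p-values below measure only how these libraries scatter, which could be technical scatter. Values named in pairs are replicate 1 and then replicate 2.

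Cardiac fibroblasts make and remodel the collagen-rich matrix of the heart, and in culture they take on an activated state with high collagen, fibronectin and elastin. EphrinB2, the product of Efnb2, is a membrane-bound ligand of EphB and EphA4 receptors that signals in both directions between touching cells. Osteogenic media are used to drive mesenchymal cells toward bone-forming osteoblasts, whose regulators are Runx2 and Sp7. Such media commonly hold a glucocorticoid with ascorbate and a phosphate source, but whether this one did is not given in the labels.

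The deposited values are FPKM (fragments scaled to exon length and to the number counted in each library). Over all genes they summed to 360626 in EphrinB2 osteogenic replicate 1 and to between 253613 and 269809 in every other library. Levels compared between that library and the others carry this difference. The depth read from the steps between low values was 16493928 to 20550684 counted reads per library, and 11717 to 12125 genes reached 1 FPKM. The limma test on log2(FPKM + 1) covered the 12994 genes that had 1 FPKM or more in 2 or more libraries. Every fold change below is on that scale, and the added 1 shrinks the differences of weakly expressed genes. A gene is said to have risen or fallen where its adjusted p was under 0.05. Genes under 1 FPKM in all complete libraries entered the test only through osteogenic libraries, which favours calling them as risen. The converse holds for falls. The spread comes from all 4 groups, and the vector partners lay closer together than the EphrinB2 partners. For EphrinB2 partners the log2 difference had an SD over genes of 0.52 in complete medium and 0.66 in osteogenic medium, and for vector partners 0.26 and 0.23. The shared spread therefore lay below that of the EphrinB2 partners, and the SE and p-values for EphrinB2 cells tend to be too small.

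In EphrinB2 cells, complete replicate 2 and osteogenic replicate 1 stood apart from their partners along gene length. Osteogenic replicate 1 lay higher than replicate 2 for short genes and lower for long genes (Spearman's rho of the difference with exon length −0.51 across genes, which are not independent replicates). It was at least 2-fold above its partner for 948 genes and at least 2-fold below it for 631. Complete replicate 2 leaned the opposite way against replicate 1 (rho 0.44), with 331 genes at least 2-fold higher and 378 lower. Both gaps add to the difference between the media in the same direction. The medium difference in EphrinB2 cells had a rho of −0.36 with exon length, against 0.005 in vector cells.

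The 4 library pairs show where this matters. In the shortest of 5 equal groups of tested genes, with exon lengths of 27 to 1758 bases, the median log2 difference was 0.74 for osteogenic replicate 1 over complete replicate 2. It was 0.43 for osteogenic replicate 1 over complete replicate 1, 0.20 for osteogenic replicate 2 over complete replicate 2, and −0.08 for osteogenic replicate 2 over complete replicate 1. In the longest group, 7132 to 41155 bases, the same pairs gave −0.70, −0.40, −0.24 and 0.06. The pair without either library that stood apart lay near the vector cells, whose medians were −0.06 and −0.02 in these groups.

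**Figure D1:**
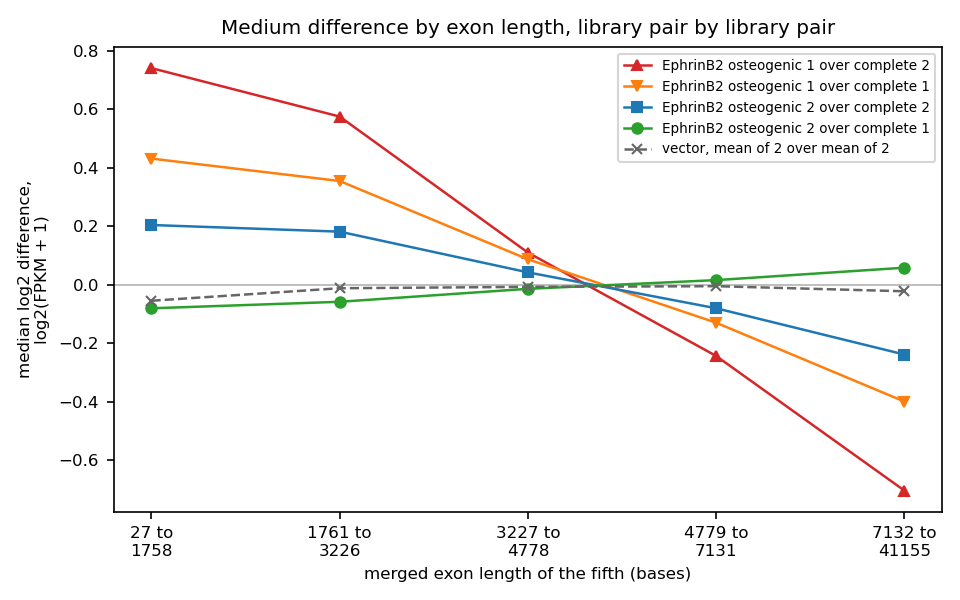
Median log2 difference (log2(FPKM + 1), osteogenic minus complete medium) of the tested genes in 5 equal groups by merged exon length in bases, for each of the 4 EphrinB2 library pairs (coloured lines) and for the vector group means (dashed grey). The line for osteogenic 2 over complete 1 stays between −0.08 and 0.06, while osteogenic 1 over complete 2 goes from 0.74 in the shortest to −0.70 in the longest group.

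Efnb2 itself (chr8:8617434-8661242, minus strand, mm10), the overexpressed gene, was at 31.3 and 32.8 FPKM in complete medium and at 5.02 and 18.3 in osteogenic medium. All 4 libraries lay above the vector libraries of the same medium, which were at 6.30 and 5.56 with complete medium and 1.39 and 1.27 with osteogenic medium. Both osteogenic EphrinB2 libraries lay below both complete ones, and osteogenic replicate 1 was the lowest by far. The log2 difference was −1.62 ± 0.48 (SE, n = 2 libraries per medium), which did not pass (limma adjusted p = 0.0764). With osteogenic replicate 2 and complete replicate 1 alone it was −0.74 and passed as a fall (limma adjusted p = 0.0113), each lone library being assumed to vary like the vector libraries. The cells' own transcript and the introduced one were not separated in these values.

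Over all genes, 1533 of 12994 passed in EphrinB2 cells (11.8%), of which 826 rose (6.36%) and 707 fell (5.44%). Counts of calls in the gene lists below are to be read beside these shares. By at least 2-fold, 547 rose and 425 fell. The EphrinB2 libraries of the media did not overlap for any of the 1533. That also held for 47.9% of all tested genes, 3161 higher and 3066 lower in osteogenic medium, so it is no sign of a change by itself. A difference of at least 2-fold in the same direction in all 4 library pairs was met by 534 genes (4.11%), 307 higher and 227 lower, and 526 of these were among the 1533. The count depended on which libraries entered the spread and with what weight. With library weights estimated by limma it was 335 (2.58%), and from the EphrinB2 libraries alone it was 153 (1.18%). All 335 and 152 of the 153 were among the 1533, and 134 genes passed in all 3 fits. Leaving out 1 vector library at a time gave 720 to 766 calls. Without complete replicate 2 there were 635, and without osteogenic replicate 2, which leaves osteogenic replicate 1 alone, 5686. With complete replicate 1 and osteogenic replicate 2 alone, where each lone library is assumed to vary like the vector libraries, 3858 genes passed and 1397 of the 1533 kept their call. With the trend on gene length removed from each library 2242 passed, 1414 of the 1533 kept their call and none changed sign.

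The same direction was found in vector cells for nearly all of these genes. The vector cells had 977 called genes (7.52%), and 843 genes were called in both, which is 55.0% of the calls in EphrinB2 cells and 86.3% of those in vector cells. Of the 1533, 1513 had the same sign in vector cells (98.7%), against 69.1% of all tested genes. Genes that rose in EphrinB2 cells had a median log2 difference of 1.18 there and 0.97 in vector cells, and those that fell had −1.11 and −0.86. Choosing genes by their call in EphrinB2 cells favours large differences there, so these medians do not show a larger effect than in vector cells. Without the libraries that stood apart, the medians in EphrinB2 cells were 1.00 and −0.92. Both comparisons share the model's spread but no library. The test of whether the medium effect differed between the cells called 0 genes (0%, limma, smallest adjusted p = 0.347), with 214 genes at an unadjusted p under 0.05. Without a filter on low values 22 genes passed that test.

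**Figure D2:**
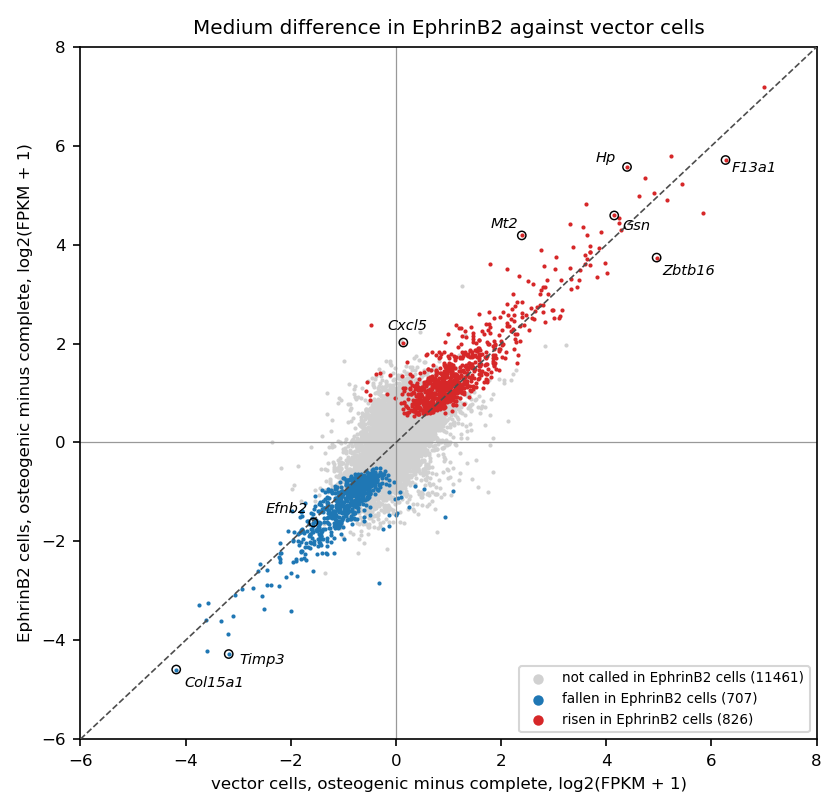
Medium difference (log2(FPKM + 1), osteogenic minus complete) in EphrinB2 cells on the vertical axis against vector cells on the horizontal axis, 1 point for each of 12994 tested genes, coloured by the call in EphrinB2 cells, with the line of equality dashed. Points that rose (826) lie mostly in the upper right and points that fell (707) in the lower left, and Cxcl5 lies near 0 on the vector axis and at 2.02 on the other.

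The largest rises joined macrophage genes, acute-phase proteins, a cell cycle inhibitor and drug-metabolizing enzymes. F13a1 (chr13:36867178-37050244), the A subunit of coagulation factor XIII and a gene of tissue-resident macrophages, was at 0.607 and 0.963 FPKM in complete medium and at 83.4 and 102 in osteogenic medium. The osteogenic libraries were close to each other and far above both complete ones, a log2 difference of 5.71 ± 0.18 (SE, limma adjusted p = 6.42e-05). Lyve1 (chr7:110850607-110863239), a hyaluronan receptor of lymphatic vessels and resident macrophages, stood at 0.124 and 0.0623 against 33.6 and 48.1 FPKM, without overlap (log2 difference 5.24 ± 0.19, limma adjusted p = 6.42e-05). Both also passed in limma on the EphrinB2 libraries alone (limma adjusted p = 0.00604 and 0.00737).

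Cbr2 (chr11:120729489-120732114), a carbonyl reductase, was at 0.234 and 0.274 FPKM in complete medium and at 99.2 and 47.6 under osteogenic differentiation. Osteogenic replicate 1 was the higher, and both osteogenic values lay far above complete medium (log2 difference 5.80 ± 0.31, limma adjusted p = 0.000227). Hp (chr8:109575128-109579172), which encodes the haemoglobin-binding plasma protein haptoglobin, rose from 18.9 and 23.8 to 1766 and 632 FPKM. Here the osteogenic partners differed widely, and without the libraries that stood apart the log2 difference was 4.99 in place of 5.57 ± 0.49 (limma adjusted p = 0.00131).

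Slc38a5 (chrX:8271133-8280179), a glutamine and serine transporter, rose from 0.231 and 0.162 to 46.2 and 50.1 FPKM (log2 difference 5.36 ± 0.15, limma adjusted p = 4.87e-05). Its osteogenic libraries nearly coincided. Serpina3m, a member of a protease inhibitor cluster whose near-identical paralogs may share reads, rose from 0.211 and 0.282 to 51.5 and 31.5. Nmb, the peptide neuromedin B, rose from 0.849 and 0 to 56.6 and 24.7, with no overlap but with both pairs of partners apart.

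Gsn (chr2:35256380-35307892), the actin-severing protein gelsolin, was among the most abundant risen transcripts, at 178 and 145 FPKM with complete medium and 4349 and 3494 with osteogenic medium. Both osteogenic libraries were high, and the log2 difference was 4.59 ± 0.22 (limma adjusted p = 0.000179) and 4.15 in vector cells.

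**Figure D3:**
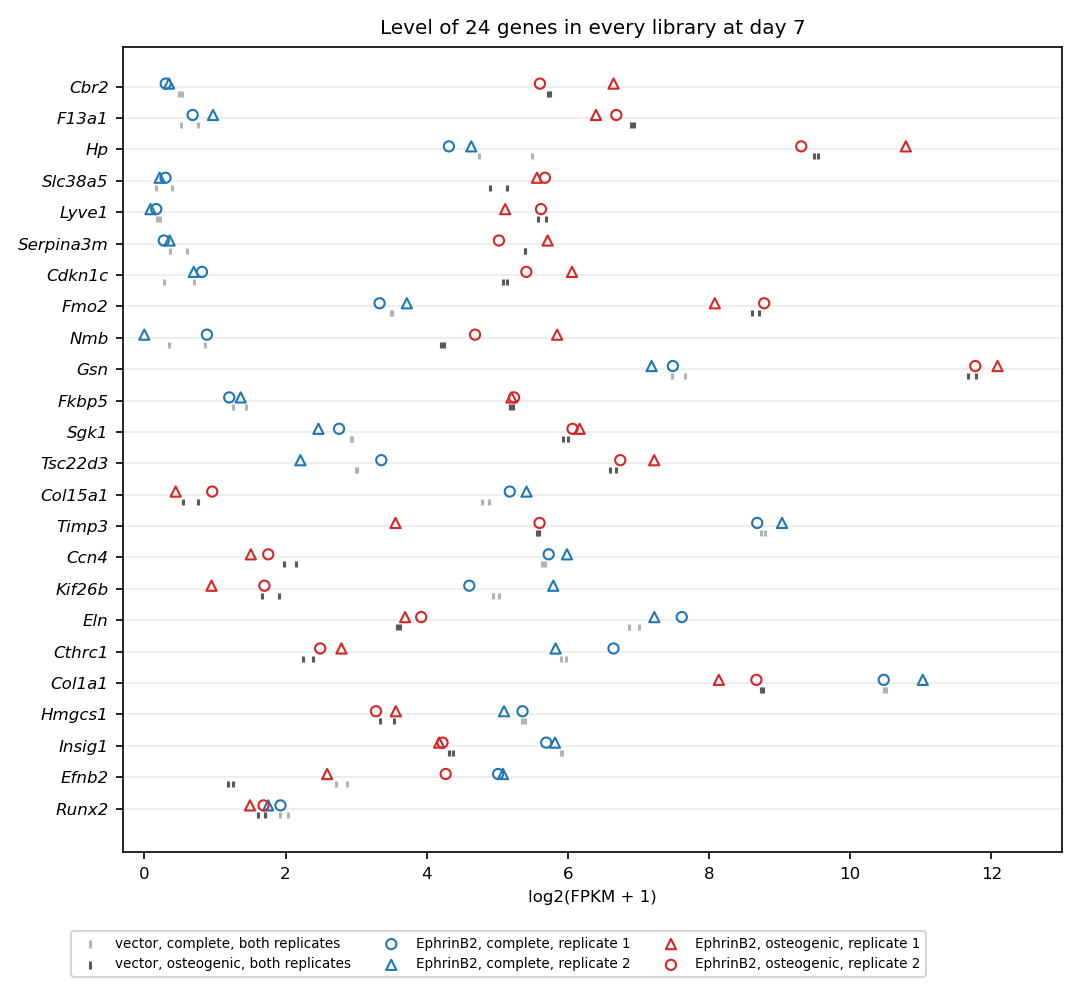
Level (log2(FPKM + 1)) of 24 genes in every library at day 7, with EphrinB2 libraries as open symbols (blue for complete, red for osteogenic medium, triangles for the libraries that stood apart) and vector libraries as grey ticks. For the genes from Cbr2 to Tsc22d3 both red symbols lie right of both blue ones, for those from Col15a1 to Efnb2 they lie left, and for Runx2 the 4 symbols lie together.

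Glucocorticoid-induced genes were the list with the highest median. Glucocorticoids bind the receptor Nr3c1, which enters the nucleus and activates genes through a DNA element made of inverted repeats. Of 18 genes in the list, 14 rose and none fell. All 18 lay higher in both osteogenic libraries than in both complete ones, as did 3161 of all 12994 tested genes. The median log2 difference was 2.94, and 2.66 without the libraries that stood apart, against 0.03 over all genes tested. In vector cells 13 of the 18 rose, with a median of 2.54. With library weights 12 rose and from the EphrinB2 libraries alone 9.

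Fkbp5, a co-chaperone that dampens receptor activity, was at 1.30 and 1.58 FPKM in complete medium and at 35.8 and 36.7 under osteogenic differentiation. Its osteogenic libraries nearly coincided, and the log2 difference was 3.94 ± 0.14 (limma adjusted p = 6.42e-05). Tsc22d3, the anti-inflammatory mediator GILZ, rose from 9.25 and 3.63 to 148 and 106. Cdkn1c (chr7:143458339-143461050), the cyclin-dependent kinase inhibitor p57, rose from 0.762 and 0.624 to 65.7 and 41.6 (log2 difference 4.98 ± 0.25, limma adjusted p = 0.000179). In each of these the higher osteogenic library was at most 2-fold above the lower one.

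Zbtb16, a zinc finger repressor also called PLZF, was at 0.0098 and 0.023 FPKM in complete medium and at 5.31 and 28.2 in osteogenic medium. It rose in both osteogenic libraries (log2 difference 3.74 ± 0.61, limma adjusted p = 0.0124), with replicate 1 far below replicate 2, and the difference was 4.85 without the libraries that stood apart. The metallothioneins Mt1 and Mt2, which bind zinc and copper, showed the opposite gap. Mt1 was at 50.5 and 19.0 with complete medium and at 598 and 244 with osteogenic medium, and Mt2 at 1.41 and 0.619 and at 50.1 and 24.3, and both rose.

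The remaining 4 members of the list did not pass. Dusp1, a phosphatase of MAP kinases, was at 27.4 and 19.4 FPKM in complete medium and 38.3 and 38.1 under osteogenic differentiation (log2 difference 0.70 ± 0.21, limma adjusted p = 0.0761). Klf9, Cebpd and Ddit4 had log2 differences of 1.26, 1.33 and 1.25 with wide gaps between partners. Klf9 was at 27.2 and 87.5 in osteogenic medium, and without the libraries that stood apart its difference was 2.23. Sgk1, a kinase that regulates ion transport, Klf15, a regulator of amino acid metabolism, Pdk4, an inhibitor of pyruvate oxidation, and Glul, glutamine synthetase, also rose, by 3.50, 3.14, 3.60 and 2.74, named after their values were seen.

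Because many of these genes are textbook receptor targets, the bases before the gene starts were searched for GNACA and TGTNC set 3 bases apart, a form of the glucocorticoid response element that reads alike on both strands. The search covered 250 bases before each start in RefSeq promoter entries on GRCm38.p6. Of 599 risen genes with an entry, 12 held the letters (2%), against 0 of 479 that fell and 20 of 8060 not called (0.248%). Among all 27025 genes with an entry 0.44% held them, and among all 32851 entries 0.387%. In the glucocorticoid list 2 of 14 genes with an entry did, Mt1 and Sgk1. A match is a description of letters and not a bound site, and a gene without one may have elements elsewhere. Stretches of the 8 matching risen genes with a mean of at least 5 FPKM in osteogenic medium follow, on the gene's strand from 5′ to 3′, with the matching letters in capitals.
Sgk1, chr10:21993672-21993744, plus strand: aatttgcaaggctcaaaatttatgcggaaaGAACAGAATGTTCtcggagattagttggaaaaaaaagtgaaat
Mt1, chr8:94178965-94179037, plus strand: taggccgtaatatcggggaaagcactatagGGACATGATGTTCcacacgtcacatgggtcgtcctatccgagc
Slc10a6, chr5:103629524-103629596, minus strand: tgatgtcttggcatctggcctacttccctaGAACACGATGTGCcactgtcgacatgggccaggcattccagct
Serpina3n, chr12:104406600-104406672, plus strand: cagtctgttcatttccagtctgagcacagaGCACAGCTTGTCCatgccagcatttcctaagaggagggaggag
Serpina3c, chr12:104153905-104153977, minus strand: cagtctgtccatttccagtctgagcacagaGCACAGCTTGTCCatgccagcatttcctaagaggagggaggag
Txnip, chr3:96557755-96557827, plus strand: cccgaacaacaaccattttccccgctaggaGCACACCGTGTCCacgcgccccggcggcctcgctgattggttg
Tinagl1, chr4:130174907-130174979, minus strand: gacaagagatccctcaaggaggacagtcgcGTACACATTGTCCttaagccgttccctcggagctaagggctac
Map3k6, chr4:133240607-133240679, plus strand: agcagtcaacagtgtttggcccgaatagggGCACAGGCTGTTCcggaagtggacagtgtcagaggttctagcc

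These 8 genes rose by different amounts. Sgk1 was at 5.77 and 4.53 FPKM with complete medium and at 70.8 and 66.0 with osteogenic medium. Slc10a6, a transporter of sulfated steroids, rose from 1.00 and 1.14 to 43.2 and 34.2 (log2 difference 4.25 ± 0.16, limma adjusted p = 7.31e-05). The paralogs Serpina3n and Serpina3c, which carry the same capital letters, were at 466 and 482 against 3361 and 2520 FPKM and at 3.16 and 3.23 against 11.0 and 8.79. Txnip, an inhibitor of thioredoxin, Tinagl1, a matrix protein, and Map3k6, a stress kinase, rose by 1.54, 1.16 and 1.88 on the log2 scale. Partners lay close for Sgk1 and Txnip and no osteogenic value overlapped complete medium in any of the 8.

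Most of the tested genes of the acute-phase list and most of the tested complement genes rose. The acute-phase list holds plasma proteins of the inflammatory response and also the metalloreductase Steap4. Of 9 tested acute-phase genes 8 rose and none fell (median log2 difference 2.65, and 2.74 in vector cells), and the remaining 9 of the list were under 1 FPKM in all EphrinB2 libraries and not tested. Of 17 tested complement genes 12 rose and none fell, with a median of 1.44, and 1.06 in vector cells. With library weights 6 and 7 of these rose, and from the EphrinB2 libraries alone 5 and 3.

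Steap4, a metalloreductase, was at 0.837 and 1.35 FPKM in complete medium and at 15.9 and 18.7 under osteogenic differentiation (log2 difference 3.14 ± 0.17, limma adjusted p = 0.000227). Ahsg, the calcification inhibitor fetuin-A, rose from 0.306 and 0.166 to 11.1 and 7.11. Lcn2, a siderophore-binding protein, rose from 0.908 and 0.925 to 45.1 and 16.8, a change that did not pass with library weights (limma adjusted p = 0.317). Saa3, serum amyloid A3, is the member that did not pass: it was at 4.51 and 4.42 with complete medium and at 59.8 and 9.81 with osteogenic medium, so both osteogenic values lay higher and the size of the difference rests on replicate 1. Without the libraries that stood apart its log2 difference was 0.97, which did not pass either.

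C3, the central complement component, was at 247 and 382 FPKM in complete medium and at 994 and 1461 under osteogenic differentiation, and C4b at 18.5 and 21.4 and at 121 and 141. Both rose without overlap, by 1.97 ± 0.29 and 2.65 ± 0.18 (limma adjusted p = 0.00805 and 0.000548). C7, a part of the membrane attack complex, rose from 1.78 and 1.70 to 11.7 and 19.6, and C2, a protease of the classical pathway, from 0.856 and 1.13 to 9.92 and 6.83. Cfi, which cleaves C3b, showed no such difference, at 32.5 and 30.9 against 33.1 and 24.6.

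Macrophage markers were present in all EphrinB2 libraries and moved with the medium. Their summed level over 19 markers was 1899 and 949 FPKM with complete medium and 8886 and 4495 with osteogenic medium. A single marker, Lyz2, whose values are given below, made up the larger part of this sum in every EphrinB2 library. All genes together summed to 269809 and 265495 FPKM with complete medium and 360626 and 262091 with osteogenic medium. Of the 19, 16 rose and 1 fell, with a median log2 difference of 1.80, and 1.16 without the libraries that stood apart. In vector cells 8 rose, with a median of 1.34. With library weights 6 rose, and from the EphrinB2 libraries alone 3, Lyve1, F13a1 and Cd163. In bulk RNA, more or fewer cells of a type and more or less RNA per cell cannot be told apart.

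The macrophage genes differed among themselves. Cd163, the haptoglobin-haemoglobin scavenger receptor, rose from 0.266 and 0.311 to 10.2 and 16.2 FPKM, a log2 difference of 3.43 ± 0.21 (limma adjusted p = 0.000351). Csf1r, the receptor of macrophage growth factor, rose from 18.9 and 26.2 to 51.0 and 51.4, a smaller difference of 1.17 ± 0.20 (limma adjusted p = 0.0136). Ptprc, the leukocyte antigen CD45, was at 1.65 and 1.77 and at 1.92 and 2.29, which did not pass. The fractalkine receptor Cx3cr1 fell, from 7.62 and 9.88 to 4.63 and 4.57.

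The short macrophage transcripts followed the libraries as well as the medium. Lyz2, lysozyme, was at 1328 and 551 FPKM in complete medium and at 6061 and 2978 under osteogenic differentiation, and Tyrobp, an adaptor of immune receptors, at 47.4 and 18.2 and at 218 and 87.5. In both, complete replicate 2 and osteogenic replicate 1 were the extremes, and without them the log2 differences were 1.16 and 0.87 in place of 2.31 and 2.19. Whether macrophage RNA contributed to the acute-phase, complement, chemokine and antioxidant values was not tested. Genes of scavenging macrophages outside the list also rose, named after their values were seen: Marco from 3.50 and 3.43 to 136 and 77.7, and Vsig4 from 2.58 and 2.08 to 43.9 and 41.1.

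Other cell types left smaller traces. Fibroblast markers, the check of the labelled cell type, summed to 7043 and 8937 FPKM with complete medium and 3530 and 3549 with osteogenic medium. Of the 12, 1 rose and 4 fell, with a median log2 difference of −0.09, and the falls were Col1a1, Col1a2, Col3a1 and Fn1, which were abundant in complete medium. The summed level of 10 endothelial markers was 9.47 to 14.2 FPKM across the EphrinB2 libraries, that of 6 Schwann cell markers 5.90 to 13.6, and that of 8 lymphocyte markers 0.117 to 0.303. Of 11 cardiomyocyte markers 1 was high enough to test. Tnnt2, cardiac troponin T, rose from 0.742 and 0.720 to 14.8 and 8.20 FPKM. Being under 1 FPKM in both EphrinB2 complete libraries, it entered the test through osteogenic libraries, so the filter favoured a rise. Actc1 was listed at 0 in all 4 EphrinB2 libraries and Myh6 was at most 0.00723. The smooth muscle and pericyte markers summed to 193 and 328 in complete medium and 82.2 and 158 under osteogenic differentiation, mostly Pdgfrb and Notch3. Those of epicardium and mesothelium summed to 173 and 167 and to 68.1 and 72.4, of which Aldh1a2, a retinoic acid synthesizing enzyme, made up the larger share.

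**Figure D4:**
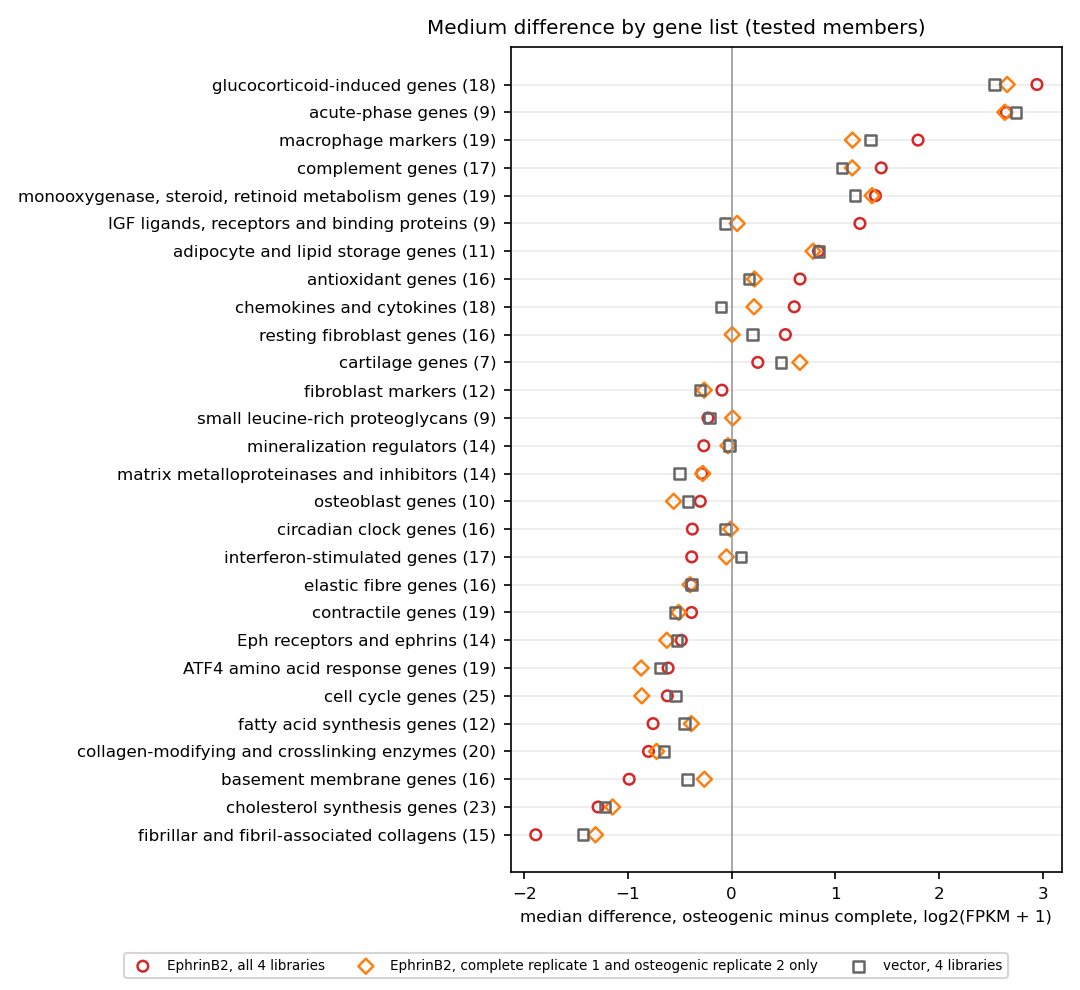
Median medium difference (log2(FPKM + 1), osteogenic minus complete) over the tested members of 28 gene lists, with the number tested in brackets, for all EphrinB2 libraries (red circles), for complete replicate 1 and osteogenic replicate 2 alone (orange diamonds) and for vector cells (grey squares). Glucocorticoid-induced genes lie highest, at 2.94, and the list of fibrillar and fibril-associated collagens lowest, at −1.89. The 3 symbols part for the IGF and basement membrane lists.

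The list of 15 fibrillar and fibril-associated collagens also holds the short-chain collagen Col8a2. All 15 were lower in both osteogenic libraries than in both complete ones, as were 3066 of all 12994 tested genes. Of the 15, 12 fell, Col8a2 among them (median log2 difference −1.89, and −1.43 in vector cells, where 7 fell). Without the libraries that stood apart the median was −1.31 and all 15 fell. With library weights 8 fell, and from the EphrinB2 libraries alone 1. Their summed level was 6281 and 7504 FPKM with complete medium and 1635 and 2138 with osteogenic medium.

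Col1a1 (chr11:94936224-94953042), the main chain of collagen I, was at 1422 and 2087 FPKM in complete medium and at 281 and 407 under osteogenic differentiation. Both osteogenic libraries were low and the log2 difference was −2.35 ± 0.27 (limma adjusted p = 0.00344). Its partner chain Col1a2 was at 593 and 678 against 228 and 264, a difference of −1.37 ± 0.18 (limma adjusted p = 0.00577). Col5a1, which nucleates fibrils, fell from 226 and 303 to 38.2 and 65.2, and Col12a1, a fibril-bound linker with long exons, from 117 and 239 to 15.1 and 40.1. Col12a1 did not pass with library weights (limma adjusted p = 0.0794), and its difference was −1.52 without the libraries that stood apart against −2.71 with them.

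Larger falls were found in single matrix genes. Col15a1 (chr4:47208161-47313167), a collagen of the zone next to basement membranes, fell from 35.2 and 41.6 to 0.360 and 0.948 FPKM, the largest fall by the rule used (log2 difference −4.59 ± 0.21, limma adjusted p = 0.000176). Col8a2, a short-chain collagen, fell from 10.4 and 13.2 to 0.119 and 0.370. Eln (chr5:134702593-134747323), elastin, fell from 195 and 149 to 11.9 and 14.2, with partners close in both media (−3.61 ± 0.19, limma adjusted p = 0.000227). These 3 passed in all of the fits with all 8 libraries, with library weights and with EphrinB2 libraries alone.

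Several secreted regulators of the activated fibroblast fell with them. Ccn4, a Wnt-induced matricellular protein, was at 52.0 and 62.4 FPKM with complete medium and at 1.84 and 2.38 with osteogenic medium (log2 difference −4.23 ± 0.17, limma adjusted p = 9.98e-05). Cthrc1, a marker of activated fibroblasts, fell from 99.2 and 55.7 to 5.93 and 4.62, Fndc1 from 65.1 and 93.6 to 4.24 and 8.08, and Scg2, a secretory granule protein, from 33.7 and 15.9 to 1.64 and 1.32. Their media did not overlap. The microtubule motor gene Kif26b and the sodium-calcium exchanger Slc8a1 also fell, and both have long exons. Slc8a1 was at 31.0 and 69.7 in complete medium and at 1.03 and 8.96 under osteogenic differentiation, and its difference was −1.68 without the libraries that stood apart against −3.40 with them, and it did not pass with library weights (limma adjusted p = 0.0501).

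Timp3 (chr10:86300372-86349506), an inhibitor of matrix metalloproteinases bound to the matrix, was at 410 and 523 FPKM with complete medium and at 10.8 and 47.5 with osteogenic medium. Both osteogenic libraries were far below complete medium, and they differed from each other by more than 4-fold. The difference was −4.28 ± 0.59 (limma adjusted p = 0.00641). Leaving out the libraries that stood apart gave −3.08. From the EphrinB2 libraries alone it did not pass (limma adjusted p = 0.0599). Of the 14 metalloproteinases and inhibitors tested 5 fell and none rose (median −0.29), and 2 fell with library weights. Mmp14, a membrane-bound activator of other proteases, fell from 112 and 133 to 58.6 and 49.5, whereas Mmp2 was at 166 and 173 and at 140 and 155 and did not pass.

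Enzymes that mature collagen fell in part. Of 20 collagen-modifying and crosslinking enzymes 10 fell and none rose, with a median of −0.80, and −0.65 in vector cells. With library weights 4 fell, and from the EphrinB2 libraries alone 1, P4ha3. Loxl2, a lysyl oxidase that crosslinks collagen, fell from 171 and 206 to 37.3 and 42.7 FPKM (log2 difference −2.20 ± 0.18, limma adjusted p = 0.00107). Serpinh1, the collagen chaperone HSP47, fell from 1065 and 986 to 444 and 375, and P4ha3, a prolyl hydroxylase subunit, from 17.9 and 16.4 to 4.04 and 4.25. Lox itself, at 800 and 831 against 325 and 522, did not pass (limma adjusted p = 0.053).

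Basement membrane genes depended on the libraries. The median over 16 genes was −0.99, but −0.26 without the libraries that stood apart and −0.43 in vector cells. With all libraries 2 fell, Col15a1 and Lamb1, against 707 of all 12994 tested genes. Of the 16, 13 lay lower in both osteogenic libraries, against 3066 of all tested genes. Hspg2, perlecan, shows the pattern most clearly, at 183 and 547 FPKM in complete medium and at 42.4 and 155 under osteogenic differentiation. Its complete replicate 1 and osteogenic replicate 2 were close, with a log2 difference of −0.24, while the mean difference of −1.95 ± 0.68 did not pass (limma adjusted p = 0.115). Col4a1, a network collagen, was at 871 and 1092 against 357 and 666 and did not pass either.

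Other matrix groups were mixed. Of 16 elastic fibre genes 3 fell and 2 rose, and with library weights 2 fell and none rose. Fbn1, the microfibril protein fibrillin, has long exons and fell from 308 and 624 to 40.7 and 125 FPKM. Its log2 difference was −1.29 without the libraries that stood apart against −2.60 with them. The call of Fbn1 was lost with library weights (limma adjusted p = 0.0643). Fbln2 fell from 741 and 913 to 176 and 242, whereas Efemp1 rose from 114 and 73.9 to 279 and 235. Of 9 small leucine-rich proteoglycans 3 rose and 2 fell. Dcn, decorin, rose from 222 and 118 to 801 and 663 (log2 difference 2.16 ± 0.31, limma adjusted p = 0.00724), and Fmod, fibromodulin, fell from 88.5 and 72.6 to 16.7 and 22.5. Both bind collagen fibrils, and they moved in opposite directions in vector cells too, by 1.46 and −1.96.

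The regulators of osteoblasts did not pass at day 7. Of 22 osteoblast genes 12 were too low to test, 2 rose and 4 fell, with a median of −0.30 over the 10 tested. With library weights 1 rose and 2 fell. Runx2, the master regulator of osteoblasts, was at 2.81 and 2.37 FPKM with complete medium and at 1.82 and 2.22 with osteogenic medium (log2 difference −0.25 ± 0.15, limma adjusted p = 0.276). Sp7 was listed at 0 in all 4 EphrinB2 libraries. Alpl, tissue-nonspecific alkaline phosphatase, was at 2.81 and 3.43 and at 3.38 and 1.44, with overlap. Spp1, osteopontin, which macrophages also make, lay higher in both osteogenic libraries, at 426 and 165 against 96.0 and 86.4, and did not pass (limma adjusted p = 0.0609).

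The members that changed include genes that many other cells express. Cdh11, an adhesion molecule of mesenchymal cells, fell from 25.5 and 23.6 to 1.84 and 3.28 FPKM (log2 difference −2.87 ± 0.21, limma adjusted p = 0.000776). Sparc, osteonectin, a collagen-binding protein of many matrices, fell from 3059 and 1625 to 1009 and 899 and barely passed (limma adjusted p = 0.0495). Its call was lost with library weights (limma adjusted p = 0.172) and from the EphrinB2 libraries alone (limma adjusted p = 0.32). Omd, osteomodulin, rose from 1.84 and 2.43 to 10.3 and 9.98. Ifitm5, a membrane protein of osteoblasts, rose from 0.338 and 0.0793 to 1.34 and 1.02 and stayed near the detection limit, and it is named after its values were seen.

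Regulators of mineralization changed in both directions, 2 up and 4 down of 14 tested. Enpp1, which makes the mineralization inhibitor pyrophosphate, fell from 19.6 and 26.8 to 3.50 and 4.93 FPKM (log2 difference −2.21 ± 0.21, limma adjusted p = 0.00163). Tnfrsf11b, osteoprotegerin, the decoy receptor that blocks osteoclast formation, fell from 69.0 and 62.2 to 6.84 and 8.39 (−2.95 ± 0.16, limma adjusted p = 0.000227). Ahsg rose as given above, and Gas6, a ligand of TAM receptors, rose from 849 and 903 to 2751 and 2335. The inhibitor Mgp was at 1013 and 518 against 3221 and 1296 and did not pass (limma adjusted p = 0.0947). For all of these but Mgp the partners in each medium lay close.

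Among 7 tested cartilage genes 3 rose and 2 fell, and 2 rose and 1 fell with library weights. Prg4, lubricin, which coats joint surfaces, rose from 1.10 and 0.878 to 39.0 and 45.0 FPKM (log2 difference 4.43 ± 0.16, limma adjusted p = 6.42e-05), and passed in every fit named above. Comp and Matn2 rose, and Matn4 and Cilp fell. The call of Comp was lost with library weights (limma adjusted p = 0.125). Sox9, the chondrocyte regulator, was at 20.0 and 22.4 against 20.1 and 32.1 and did not pass, and Acan was at most 0.125.

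Lipid genes split by pathway. Cells make cholesterol from acetyl-CoA through the mevalonate pathway, whose genes are switched on together by the sterol sensor system of SREBP2, SCAP and INSIG. Of 23 tested cholesterol synthesis and uptake genes 20 fell and none rose. The median log2 difference was −1.29, −1.15 without the libraries that stood apart and −1.22 in vector cells, where 19 fell. With library weights 10 fell. In limma on the EphrinB2 libraries alone none passed, with 20 at an unadjusted p under 0.05.

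Hmgcs1, which makes HMG-CoA, was at 40.0 and 33.2 FPKM in complete medium and at 10.8 and 8.73 under osteogenic differentiation. Both osteogenic libraries were low (log2 difference −1.80 ± 0.18, limma adjusted p = 0.00199). Cyp51, the sterol demethylase, fell from 35.9 and 38.5 to 11.6 and 8.86. Of the 3 that did not pass, Ebp, Mvk and Pmvk, Ebp was at 11.6 and 8.74 against 24 and 12.1.

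The promoters of these genes were searched in the same way for TCACNCCAC, a form of the sterol regulatory element, and for CCAAT, which binds NF-Y, on both strands. CCAAT was found in 15 of 16 genes of the list with an entry (93.8%), against 37.5% of all genes with one and 33.8% of all entries. It was in 44.7% of genes that fell, 38.6% of those that rose and 40% of those not called. The list members that did not pass, Ebp, Mvk and Pmvk, held CCAAT too, Mvk at 5 places. TCACNCCAC was found in 1 of the 16, Hmgcs1, against 1.22% of all genes and 1.05% of all entries. Stretches before the starts of 4 members, taken only from those that fell, follow on the gene's strand from 5′ to 3′. CCAAT, its reverse complement ATTGG and the sterol element are in capitals.
Hmgcs1, chr13:119690101-119690340, plus strand: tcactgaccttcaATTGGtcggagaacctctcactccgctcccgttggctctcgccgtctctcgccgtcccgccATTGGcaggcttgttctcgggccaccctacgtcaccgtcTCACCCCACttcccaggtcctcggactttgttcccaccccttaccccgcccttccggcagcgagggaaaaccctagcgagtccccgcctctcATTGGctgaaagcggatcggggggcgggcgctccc
Cyp51, chr5:4104698-4104756, minus strand: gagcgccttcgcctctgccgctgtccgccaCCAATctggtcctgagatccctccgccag
Idi1, chr13:8885531-8885605, plus strand: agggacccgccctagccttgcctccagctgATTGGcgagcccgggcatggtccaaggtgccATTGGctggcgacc
Insig1, chr5:28071166-28071230, plus strand: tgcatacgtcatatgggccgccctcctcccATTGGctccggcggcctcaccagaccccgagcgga

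Idi1, isopentenyl diphosphate isomerase, fell from 16.2 and 15 to 3.29 and 4.65 FPKM, and Insig1, the sterol-sensing anchor of SCAP, from 50.7 and 55.4 to 17.1 and 17.7, both named after their values were seen. Of 12 tested fatty acid synthesis genes 4 fell and none rose, with a median log2 difference of −0.76, and 2 fell with library weights. Scd2, a desaturase, fell from 122 and 163 to 30.6 and 37.5, and Fads2 from 101 and 168 to 24.3 and 38.4. Fasn, fatty acid synthase, a long transcript at 19.3 and 45.7 against 6.93 and 13.9, did not pass, with a log2 difference of −1.50 that was −0.44 without the libraries that stood apart.

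Genes of adipocytes and lipid storage rose in part, 7 of 11 tested, with a median of 0.84, and 0.84 in vector cells. With library weights 2 rose, and from the EphrinB2 libraries alone 1. Fabp4, a fatty acid carrier of adipocytes, macrophages and endothelium, rose from 1.48 and 0.729 to 60 and 28.7 FPKM (log2 difference 4.36 ± 0.35, limma adjusted p = 0.00098). Pnpla2, a triglyceride lipase, rose from 10.9 and 10.9 to 35.1 and 28.5, and Cebpa from 14.9 and 16.5 to 42.5 and 32.6. Pparg, the adipocyte regulator, was at 1.56 and 1.11 against 1.58 and 1.62 and did not pass, and Adipoq, adiponectin, was at most 0.141.

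Enzymes of drug, steroid and retinoid metabolism gave several of the largest differences. Of 19 tested 11 rose and 3 fell, with a median of 1.39, and 10 and 3 in vector cells. Fmo2 (chr1:162874317-162898726), a flavin monooxygenase, rose from 9.08 and 12.2 to 270 and 439 FPKM (log2 difference 4.90 ± 0.26, limma adjusted p = 0.000227), and Fmo1 from 1.14 and 1.43 to 29.6 and 34.4. Sult1a1, a phenol sulfotransferase, rose from 0.893 and 0.684 to 41.9 and 27.6. The retinaldehyde dehydrogenases differed: Aldh1a1 rose from 174 and 172 to 477 and 465, and Aldh1a2 fell from 151 and 146 to 52.1 and 53.0. Dio3, which inactivates thyroid hormone, fell from 22.7 and 17.3 to 1.34 and 1.02. The last 3 were named after their values were seen. Partners lay close in both media for these 3.

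Of 16 antioxidant genes 5 rose and none fell. Gpx3, the secreted glutathione peroxidase, rose from 938 and 977 to 4525 and 3390 FPKM, and Prdx6, a peroxiredoxin, from 19.3 and 15 to 84.9 and 49.2. The median of the list was 0.66, but 0.22 without the libraries that stood apart and 0.17 in vector cells. Sod3, extracellular superoxide dismutase, was at 280 and 206 against 201 and 168 and did not pass.

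Circadian clock genes, which form a feedback loop of activators and repressors, changed in both directions, 3 up and 5 down of 16 tested, and 1 up and 2 down with library weights. Per1, a repressor that glucocorticoids induce, rose from 3.81 and 4.11 to 11.4 and 16.6 FPKM (log2 difference 1.57 ± 0.19, limma adjusted p = 0.00393). Bhlhe40, another repressor, fell from 18.4 and 15.8 to 1.86 and 2.16 (−2.58 ± 0.15, limma adjusted p = 0.000305), Nr1d1 from 15.5 and 15.2 to 3.21 and 4.37, and Dbp from 9.71 and 8.41 to 3.37 and 1.87. Per2 was at 1.83 and 1.62 against 2.30 and 5.62 and did not pass. The time of day at which the cells were collected is not in the labels, and its part in these values was not tested.

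Cell cycle genes fell in part. Of 25 tested 9 fell and none rose, with a median of −0.62, −0.87 without the libraries that stood apart and −0.54 in vector cells. With library weights 3 fell. In limma on the EphrinB2 libraries alone none passed, with 9 at an unadjusted p under 0.05. Top2a, topoisomerase II of dividing cells, fell from 5.51 and 7.06 to 1.57 and 1.39 FPKM (log2 difference −1.55 ± 0.15, limma adjusted p = 0.00202). Mki67 fell from 3.17 and 7.42 to 1.40 and 1.21, a call lost with library weights (limma adjusted p = 0.212) and with the length trend removed (adjusted p = 0.0517). Kif20a, a mitotic kinesin, fell from 4.39 and 4.81 to 0.974 and 0.833. Ccnd2, cyclin D2, fell from 74.0 and 123 to 12.8 and 28.7. Its log2 difference was −1.34 without the libraries that stood apart against −2.25 with them. DNA replication genes such as Mcm6, at 5.17 and 6.31 against 7.32 and 5.26, did not pass and are named after their values were seen.

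Targets of ATF4, the transcription factor of amino acid shortage, changed in part, with 8 falls and 1 rise among 19 tested (median −0.61). With library weights 1 fell, Chac1. In limma on the EphrinB2 libraries alone none passed, with 10 at an unadjusted p under 0.05. Slc7a5, a leucine transporter, fell from 31.6 and 42.7 to 7.36 and 11.4 FPKM, and Chac1 from 10.1 and 7.30 to 2.41 and 3.23. Stc2 rose from 4.43 and 3.06 to 8.53 and 10.2. Atf4 itself was at 101 and 44.1 against 101 and 57.8, with overlap, and its log2 difference of 0.19 ± 0.42 turned to −0.80 without the libraries that stood apart. Asns, asparagine synthetase, fell from 50.2 and 58.6 to 33.0 and 25.2.

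Contractile genes of myofibroblasts, activated fibroblasts with stress fibres, passed in few cases. Of 19 tested 4 fell and none rose (median −0.39), and 2 fell with library weights. Acta2, smooth muscle actin, was at 1025 and 939 FPKM against 909 and 619, with a log2 difference of −0.39 ± 0.25 (limma adjusted p = 0.319), and Tagln was at 8.26 and 5.43 against 8.74 and 4.41. Neither passed. Myh10, non-muscle myosin IIB, fell from 23.4 and 37.3 to 4.54 and 9.46, and Actn1 from 146 and 216 to 46.9 and 69.8. Vcl, vinculin, was at 56.4 and 74.7 against 6.39 and 42.2, and the low value in osteogenic replicate 1 sets its difference of −1.88, which was −0.41 without the libraries that stood apart.

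Among Eph receptors and ephrins, the signalling partners of the overexpressed protein, 5 of 14 tested fell and none rose. With library weights 2 fell, Ephb2 and Ephb3. In limma on the EphrinB2 libraries alone none passed, with 6 at an unadjusted p under 0.05. Ephb3, a receptor of EphrinB ligands, fell from 7.86 and 7.72 to 1.79 and 2.01 FPKM (log2 difference −1.60 ± 0.12, limma adjusted p = 0.000893). Ephb2, also an EphrinB receptor, fell from 4.99 and 8.72 to 1.01 and 1.61, and Efna5 and Epha7 fell by 1.44 and 1.27 on the log2 scale. Ephb4, the main receptor of EphrinB2 in vessels, was at 11.7 and 17.4 against 9.60 and 12.3 and did not pass. In vector cells 3 of the list fell.

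A list of resting fibroblast genes, which also holds some of the activated state, went both ways. Of 16 tested 5 rose and 5 fell, and 3 rose and 4 fell with library weights. Scara5, a ferritin receptor of resting fibroblasts, rose from 2.30 and 2.07 to 21.7 and 31.8 FPKM (log2 difference 3.10 ± 0.20, limma adjusted p = 0.000438), and Ly6a, which shares sequence with its paralogs, from 21.3 and 11.2 to 327 and 148. The call of Ly6a was lost with library weights (limma adjusted p = 0.176) and kept from the EphrinB2 libraries alone (limma adjusted p = 0.04). Postn, periostin, a marker of activated fibroblasts named after its values were seen, fell from 84.7 and 63.8 to 13.1 and 14.1. Pdgfra was at 41.1 and 57.7 against 41.2 and 73.1 and Tcf21 at 212 and 102 against 249 and 164. Neither of these 2 lineage markers passed, and both overlapped between the media.

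Chemokines and cytokines gave 4 rises and 2 falls among 18 tested, and 3 rises and no fall with library weights. Ccl6 and Ccl9, chemokines that macrophages make, rose from 16.6 and 12.6 to 193 and 114 FPKM and from 8.67 and 6.47 to 48.7 and 29.6. Il6 fell from 9.38 and 4.59 to 2.55 and 1.39, and Lif, a cytokine of its family, from 5.58 and 5.53 to 0.761 and 1.05. Ccl2 was at 32.2 and 44.8 against 88.2 and 49.2 and did not pass.

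Cxcl5, a neutrophil chemokine, stood out beside vector cells. It was at 4.39 and 5.83 FPKM with complete medium and at 30.2 and 18.5 with osteogenic medium in EphrinB2 cells. The vector cells were at 16.1 and 17.1 and at 17.8 and 19.0. It was thus lower than vector in EphrinB2 complete medium and near or above it in osteogenic medium. The difference of the medium effects was 1.88 ± 0.35 on the log2 scale (limma unadjusted p = 0.00116), and it did not pass over all genes (adjusted p = 0.746).

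The other genes with the smallest p for that difference were low or short. The smallest belonged to the microRNA gene Mir3569, which was listed at 0 in all EphrinB2 libraries. The pseudogene Rps27a-ps2, Rpp38, a subunit of ribonuclease P, and Thumpd2, an RNA-modifying protein, also had the more positive medium effect in EphrinB2 cells. The small RNA and ribosomal RNA genes n-R5s29, n-R5s67, Mir7664, Snord73a and Mir1954 had the more negative one. Rpp38 was at 2.48 and 2.21 FPKM against 6.21 and 5.08 in EphrinB2 cells, a log2 difference of 0.98, and −0.18 in vector cells. None passed (limma adjusted p from 0.347).

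Insulin-like growth factor binding proteins, which hold IGFs outside cells, differed from each other. Igfbp6 rose from 5.59 and 2.89 to 146 and 78.5 FPKM (log2 difference 4.42 ± 0.35, limma adjusted p = 0.001) and Igfbp3 from 237 and 165 to 495 and 478. Igfbp5 fell from 53.1 and 82.5 to 9.85 and 18.6, and the clearance receptor Igf2r from 30.2 and 51.2 to 5.89 and 14.9. The log2 difference of Igf2r was −0.97 without the libraries that stood apart against −1.94 with them. Igfbp7 was at 2195 and 609 against 4155 and 2277, and its log2 difference of 1.41 ± 0.59 was 0.05 without the libraries that stood apart. The median of the list, 1.24 over 9 genes, was likewise 0.05 without them. Igf1 fell from 18.4 and 23.3 to 12.2 and 13, a call lost with library weights (limma adjusted p = 0.237) and with the length trend removed (adjusted p = 0.186). Of the 3 rises and 3 falls in the list, 1 of each passed with library weights, Igfbp6 and Igfbp5.

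Interferon-stimulated genes had wide gaps between partners. Of 17 tested none passed in limma with all 8 libraries (0 at an unadjusted p under 0.05), with library weights or with the EphrinB2 libraries alone (1 at an unadjusted p under 0.05). Ifit1, an antiviral RNA-binding protein, was at 7.68 and 69.7 FPKM in complete medium and at 9.89 and 5 under osteogenic differentiation, and Rsad2, viperin, at 0.287 and 15.4 and at 0.550 and 0.945. In both, complete replicate 2 was the highest. The vector complete libraries were also apart, at 3.94 and 33.5 for Ifit1 and at 0.258 and 4.79 for Rsad2. Bst2, tetherin, and Ifi27l2a were highest in osteogenic replicate 1, at 340 and 105 and at 341 and 92.4 in osteogenic medium against 122 and 55.5 and 124 and 80.1 in complete medium. Isg15 was at 32.2 and 29.0 against 37.5 and 11.2, with overlap.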

How the data were processed

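The deposited table holds FPKM for 54532 genes in 8 libraries, which the authors made from total RNA sequencing. The submitters' processing notes name CASAVA, HISAT2 2.0.5, featureCounts 1.5.0-p3, DESeq2 1.16.1 and the build mm10, without their roles. The labels and notes used here do not record the annotation release, strand setting or filters. Overlapping and antisense genes, and near-identical copies such as the Ly6, Serpina3 and metallothionein genes, are therefore uncertain. Gene symbols and lengths came from GENCODE M21, in which 54409 identifiers matched and 123 did not. Depth was read from the whole steps of low values and is an estimate, and counting error was not modelled.

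Genes with at least 1 FPKM in at least 2 libraries were tested with limma 3.58.1 (R 4.3.3) on log2(FPKM + 1), with 1 mean for each of 4 groups, a mean-variance trend, 4 residual and 2.718 prior degrees of freedom and Benjamini-Hochberg adjustment over all tested genes at 0.05. The difference of medium effects was the interaction term. A weight was estimated for each library, and the 2 libraries of each group came out equal. EphrinB2 libraries had 0.3659 in complete and 0.1967 in osteogenic medium. The weights therefore did not set a library that stood apart below its partner. The script was tested on simulated data with independent noise and no trend on exon length. That test does not cover the gaps between EphrinB2 partners along gene length. In all, 18 alternatives were run. The libraries, gene lists and tests were chosen with earlier results of these data known.

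Genes were named by a rule: Efnb2, then the 10 largest rises and 10 largest falls among called genes without overlap between the media and with a mean of at least 5 FPKM in the higher group, passing over unnamed models and pseudogenes. From each function list the rule takes up to 4 called members with the largest change and the first 2 members. It also takes the 5 smallest interaction p-values in each direction and the 5 largest gaps between partners in each direction. For some genes chosen by this rule no result is reported here. Beyond those marked in the text, Klf9, Dusp1, Cebpd, Ddit4, Cfi, Slc10a6, Serpina3c, Serpina3n, Txnip, Tinagl1, Map3k6, Ebp, Mvk, Pmvk, Alpl, Spp1, Mgp, Adipoq and the cell type markers were named after their values were seen. Motifs were searched in RefSeq promoter entries on GRCm38.p6, the assembly that mm10 denotes.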

Additional observations from a re-analysis of the deposited data

How the results depend on the processing

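The 1533 calls in EphrinB2 cells depended on how the spread was set. Library weights gave 335, the EphrinB2 libraries alone 153, and the 6 libraries without complete replicate 2 and osteogenic replicate 1 gave 3858. Leaving out 1 library at a time gave 635 to 5686. The other 7 settings gave 1052 to 2242. The fits differ in which libraries set the spread and in their degrees of freedom, and the cause was not tested. The share of calls that rose was 53.88% as reported and 72.55% from the EphrinB2 libraries alone. The test of a difference between EphrinB2 and vector cells could not be run on the EphrinB2 libraries alone. It called 0 genes as reported and in the other settings run, except without a filter on low values, where it called 22. Of the named genes, Atf4 (−0.80) and Tcf21 (−0.37) reversed and were called lower without both libraries that stood apart, and no other named gene changed sign with a call. Of 161 named values, 78 lost their call from the EphrinB2 libraries alone and 41 with library weights. The 161 include values that were not called as reported and so had no call to lose. No paired analysis was possible because the labels give the libraries no replicate numbers that groups share. With 2 libraries per group and FPKM in place of counts, low genes are the least certain, and a gene listed at 0 may still be expressed below detection.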
